A study of Mus musculus with 24 samples.

Results

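The first 6 h of the subjective day were followed in the inguinal fat of control mice by setting the 3 control arrays labelled CT6 against the 3 control arrays labelled CT0. These are 6 of the 24 arrays of a series on mouse fat, and they were chosen by their labels alone. Inguinal fat is a subcutaneous depot. Control mice had the genotype Bmal1fx/fx, in which both Bmal1 alleles carry the sites that Cre recombinase cuts, and they had no Cre. The knockout mice used for comparison had the genotype aP2-Cre+/- Bmal1fx/fx, with Cre driven by the aP2 promoter to remove Bmal1 from adipocytes, so an effect of Cre and an effect of the deletion cannot be told apart. Both genotypes were on a C57BL/6J background after at least 6 generations of crossing and ate regular chow. All groups entered constant darkness 36 h before collection began and were fasted for 24 h. CT0 is the start of the subjective day and CT6 its middle. Each of the 8 groups of genotype and circadian time had 3 biological replicates. No label states the age or sex of the mice, or which arrays were hybridized together.

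The circadian clock of a cell is a loop of transcription factors. BMAL1, encoded by Arntl, pairs with CLOCK and binds E-box sequences to switch on the genes of its own inhibitors (PER and CRY proteins), of the nuclear receptors REV-ERBα and REV-ERBβ (Nr1d1 and Nr1d2), and of PAR-bZIP factors such as DBP. The REV-ERB receptors in turn repress Arntl, Clock, Cry1 and Nfil3 through elements that ROR receptors activate, and PAR-bZIP factors bind D-box sequences that NFIL3 also occupies. In fat this loop is known to accompany daily changes in lipid synthesis, lipid breakdown and hormone secretion.

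The labelled tissue was checked against adipocyte markers, and 13 of 13 measured markers lay above the array median on all 6 arrays. Adipoq, which encodes adiponectin, lay between 11.96 and 12.13 in log2 expression. Fabp4, the fatty acid binding protein also called aP2, lay between 12.47 and 12.66. The medians of the 6 arrays were 6.48 to 6.52, and the correlation between arrays of a group was at least 0.991. In the knockout groups used for comparison the lowest correlation was 0.976 at CT0 and 0.9895 at CT6. The number of arrays, not a read depth, limits the precision. The array measures RNA of the whole pad, in which fewer cells of a type and less RNA per cell cannot be told apart. On control CT0 replicate 2, 11 of 14 measured fatty acid synthesis genes were higher than on the other 5 arrays, as were 23 of 29 respiratory chain genes. The share of all genes that were highest on this array was not counted. Results that rest on it are given with and without it.

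Between CT0 and CT6 in control fat, 7 of 19938 genes passed the threshold (limma, Benjamini-Hochberg adjusted p of 0.05 or less), which is 0.0351% of the genes tested. The 5 that rose (0.0251%) were the REV-ERB genes Nr1d1 and Nr1d2, the PAR-bZIP gene Dbp, the receptor tyrosine kinase gene Kit and the focal adhesion gene Tns2. The 2 that fell (0.01%) were Arntl and Lonrf3, which encodes a RING finger protein with a LON domain. Of the 7 genes, 4 belonged to the list of clock genes, of which 17 of the 19 listed were measured. At an unadjusted p of 0.05 or less there were 874 genes (4.38%), 556 of them higher (2.79%) and 318 lower (1.59%) at CT6. Over all genes the median log2 difference, CT6 minus CT0, was 0.01. Without control CT0 replicate 2, 5 genes passed (2 higher, 3 lower), and without control CT6 replicate 2 or without control CT6 replicate 3, 5 genes passed (3 higher, 2 lower).

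**Figure D1:**
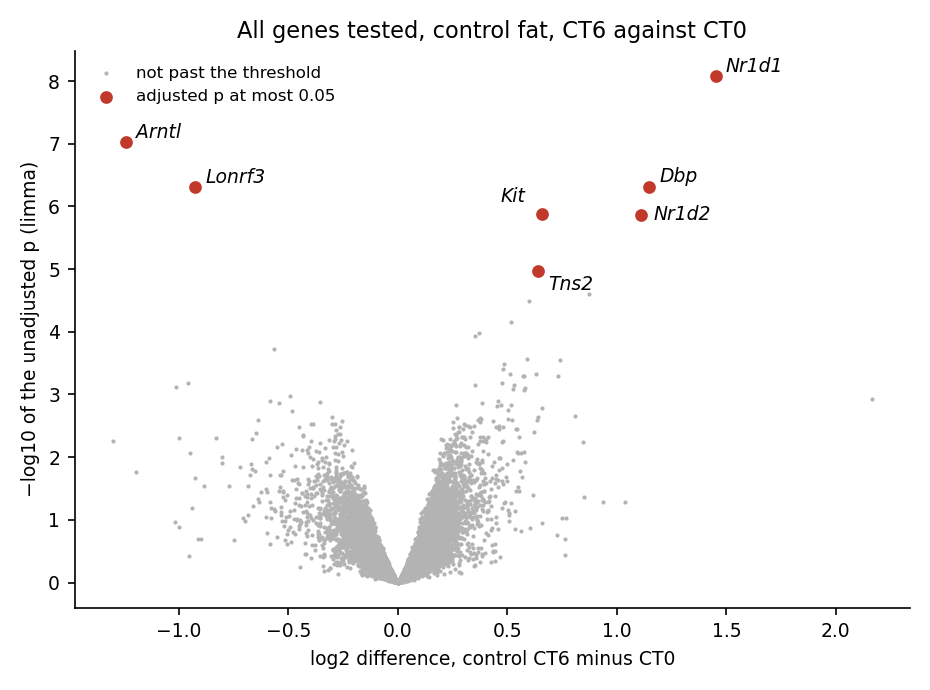
Each point is 1 of the 19938 genes tested on the control arrays: the x axis is the log2 difference, CT6 minus CT0, and the y axis is minus the log10 of limma's unadjusted p. The 7 genes past the adjusted threshold are named, with Nr1d1 at a difference of 1.45 and Arntl at -1.24, while most genes lie near 0.

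Arntl, the gene that the knockout targets and the positive arm of the loop, had a log2 expression of 7.97, 7.97 and 7.97 on the 3 control CT0 arrays and of 6.82, 6.82 and 6.54 at CT6 (probe set 10556463). All CT6 arrays were thus below all CT0 arrays. It fell by 1.24 ± 0.16 on the log2 scale (SE, n = 3 against 3; limma, adjusted p = 0.000948), so that CT0 was 2.37-fold above CT6 (95% interval 1.89 to 2.97). Clock, which encodes the partner of BMAL1, read 9.81, 9.63 and 9.60 at CT0 and 9.49, 9.29 and 9.43 at CT6. Its arrays did not overlap either, but the difference of -0.27 ± 0.14 (SE) did not pass the threshold. In the libraries labelled knockout, Arntl read 7.51, 7.30 and 7.49 at CT0 and 7.08, 6.90 and 6.88 at CT6. The knockout arrays were below the control arrays at CT0 and above them at CT6. Which exons the probe set covers is not stated, so it may lie outside the deleted stretch and then checks nothing about the labels.

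Nr1d1, whose product REV-ERBα represses Arntl, had the smallest p of all genes (probe set 10390691). Its log2 expression was 8.48, 8.23 and 8.65 at CT0 and 9.96, 9.79 and 9.95 at CT6, with every CT6 array above every CT0 array. It rose by 1.45 ± 0.16 on the log2 scale (SE; limma, adjusted p = 0.000166), a 2.73-fold increase (95% interval 2.18 to 3.43). Its close relative Nr1d2 (probe set 10417734) read 8.14, 7.91 and 8.03 at CT0 and 9.10, 9.06 and 9.24 at CT6, again with no overlap. Nr1d2 rose by 1.11 ± 0.17 (SE; limma, adjusted p = 0.00461), or 2.16-fold (1.70 to 2.74). Rora, which encodes an activator that competes with REV-ERB for the same elements, read 8.22, 7.97 and 8.01 at CT0 and 8.09, 7.97 and 8.10 at CT6. Its groups overlapped, and its difference was -0.01 ± 0.13 (SE).

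Dbp, which encodes the D-box activator DBP (probe set 10553092), read 6.55, 6.65 and 6.66 at CT0 and 7.52, 7.69 and 8.09 at CT6. The CT0 arrays lay close together and the CT6 arrays were spread but all higher. Dbp rose by 1.15 ± 0.16 (SE; limma, adjusted p = 0.00244), or 2.22-fold (1.76 to 2.80). The other PAR-bZIP genes, Tef and Hlf, were also higher on every CT6 array, by 0.52 ± 0.10 and by 0.58 ± 0.15 (SE), and neither passed the threshold (limma, adjusted p = 0.137 and 0.554). Nfil3, which encodes the repressor at D-boxes, read 7.38, 8.19 and 7.89 at CT0 and 6.75, 7.07 and 6.60 at CT6. Its arrays did not overlap, but the CT0 arrays were far apart, and the difference of -1.01 ± 0.26 (SE) did not pass (limma, adjusted p = 0.554).

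Among the repressors of CLOCK and BMAL1, none passed the threshold. Per3 came closest, with 6.91, 6.68 and 6.80 at CT0 and 7.55, 7.57 and 7.91 at CT6. Every CT6 array was above every CT0 array, and the difference was 0.87 ± 0.16 (SE; limma, adjusted p = 0.0624). Per1 and Per2 differed less, by 0.33 ± 0.14 and 0.23 ± 0.10 (SE), with no overlap of the arrays. Cry1, which REV-ERB also represses, read 7.14, 7.54 and 7.40 at CT0 and 6.82, 6.84 and 6.94 at CT6, a difference of -0.49 ± 0.13 (SE; limma, adjusted p = 0.679). Cry2 differed by 0.17 ± 0.11 (SE). Cry1 was thus lower and Cry2 higher on all CT6 arrays, and neither difference passed. The E-box repressors Bhlhe40 and Bhlhe41 and the CLOCK and BMAL1 inhibitor Ciart differed by 0.45 ± 0.12, 0.53 ± 0.35 and 0.57 ± 0.23 (SE). Of these 3 genes, Bhlhe40 alone had no overlap between the groups.

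Over the 17 clock genes, 14 had no overlap between the CT0 and CT6 arrays, 10 of them higher and 4 lower at CT6. Over all genes 14.5% did not overlap, 8.82% higher and 5.73% lower. Of the 17 genes, 13 had an unadjusted p of 0.05 or less (limma), against 4.38% of all genes. The list of E-box targets, which shares most of its members with the clock genes, had 15 measured genes. Of these, 3 rose past the threshold (Nr1d1, Dbp and Nr1d2, the clock genes already named), against 0.0251% of all genes, and 12 did not pass. A positive difference was seen in 14, against 55.1% of all genes, and the median was 0.52. Outside the clock genes it held Usp2, Wee1 and Nampt, with differences of 0.36, 0.39 and -0.20. Cry1, at -0.49, was not in this list but in the next one, although its start region also held the E-box CACGTG. The count of positive differences thus depends on how genes were assigned to the lists. The 4 measured genes under REV-ERB and ROR control (Arntl, Clock, Cry1 and Nfil3) had a median of -0.75. Of them 1, Arntl, fell past the threshold, against 0.01% of all genes. Without control CT0 replicate 2 the median of these 4 genes was -0.62.

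**Figure D2:**
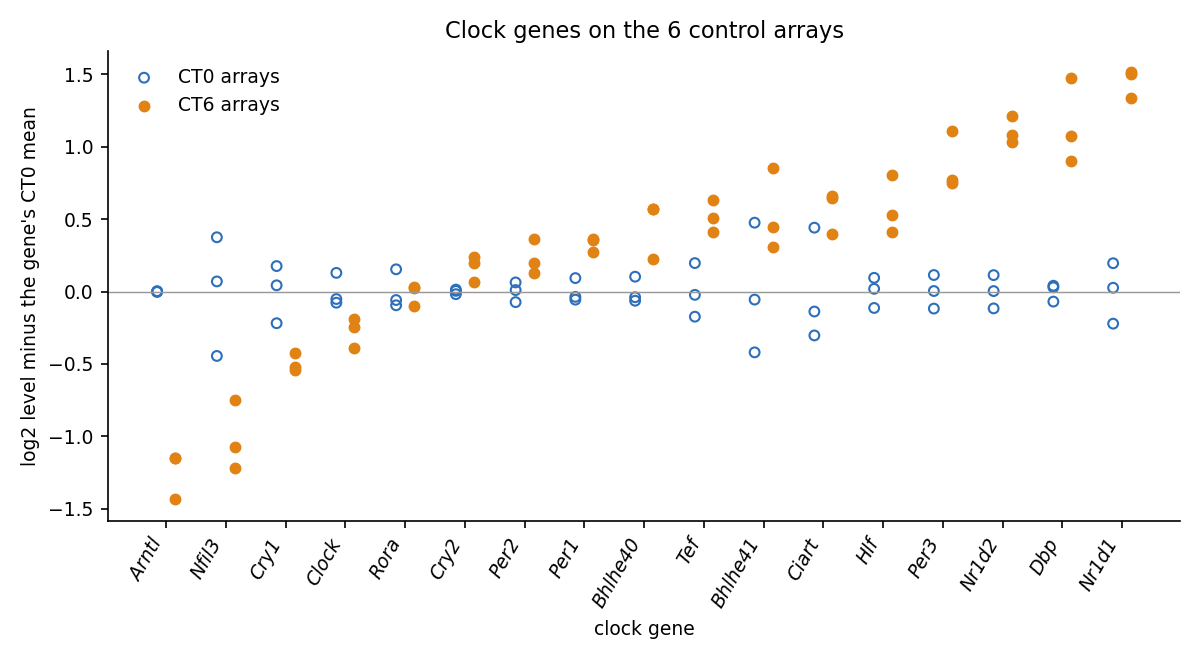
Log2 expression of the 17 measured clock genes on the 3 CT0 arrays (open circles) and the 3 CT6 arrays (filled circles) of control fat, as the difference from the gene's CT0 mean, in order of the mean difference. Arntl, Nfil3, Cry1 and Clock lie below their CT0 arrays at CT6, Rora, Bhlhe41 and Ciart overlap, and the other 10 genes lie above, up to Nr1d1.

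The start regions of the clock genes and of the 3 other genes past the threshold were searched for the elements of the loop, since the genes past the threshold moved in both directions. RefSeq promoters of build GRCm38.p6, from 250 bases before to 50 after a start site, were held for 18 of the 20 genes. The palindromic E-box CACGTG was present in 6 of the 18 (Bhlhe41, Ciart, Cry1, Lonrf3, Per1 and Tef), against 9.5% of the tested genes with a promoter and 7.15% of all 32851 promoters. The D-box, searched on both strands as TTATGTAA or TTACGTAA, was present in 1 of the 18 (Per3), against 1.17% of the tested genes. The core letters AGGTCA of the REV-ERB and ROR element, on either strand, were present in 5 (Arntl, Clock, Nfil3, Nr1d2 and Per1), against 16.3% of the tested genes. The letters TGACGTCA of the cyclic AMP response element were present in 1 (Hlf), against 2.72%. The 250 bases before the start are printed for 6 genes that show these elements, 5′ to 3′ on the gene's strand, with the matched letters in capitals. They are the called genes Lonrf3 and Nr1d2, Nfil3 as a lower gene, Per3 as the gene nearest the threshold, and Tef and Ciart as holders of E-boxes. In Lonrf3 (chrX:36328159-36328408, plus strand) the E-box lay 45 to 40 bases before the start:
Lonrf3: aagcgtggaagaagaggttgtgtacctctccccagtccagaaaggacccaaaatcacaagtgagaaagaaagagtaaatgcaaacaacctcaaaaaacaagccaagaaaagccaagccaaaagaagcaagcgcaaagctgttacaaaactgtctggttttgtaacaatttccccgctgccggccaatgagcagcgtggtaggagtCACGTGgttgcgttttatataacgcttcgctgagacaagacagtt
In Nr1d2 (chr14:18239107-18239356, minus strand) AGGTCA lay 77 to 72 bases before the start:
Nr1d2: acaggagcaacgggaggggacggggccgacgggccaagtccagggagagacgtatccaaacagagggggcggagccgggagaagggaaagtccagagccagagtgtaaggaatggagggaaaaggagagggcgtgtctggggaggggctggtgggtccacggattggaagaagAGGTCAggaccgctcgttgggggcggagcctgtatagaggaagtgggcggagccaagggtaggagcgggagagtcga
In Nfil3 (chr13:52981040-52981289, minus strand) the same element lay on the opposite strand, as TGACCT, 12 to 7 bases before the start:
Nfil3: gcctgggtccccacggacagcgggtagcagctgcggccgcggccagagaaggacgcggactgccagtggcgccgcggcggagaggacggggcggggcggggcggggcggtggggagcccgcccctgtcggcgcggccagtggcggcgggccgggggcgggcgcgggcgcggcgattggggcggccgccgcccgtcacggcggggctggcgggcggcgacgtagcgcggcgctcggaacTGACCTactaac
In Per3 (chr4:151044666-151044915, minus strand) the D-box was present at 2 places, 205 to 198 and 158 to 151 bases before the start:
Per3: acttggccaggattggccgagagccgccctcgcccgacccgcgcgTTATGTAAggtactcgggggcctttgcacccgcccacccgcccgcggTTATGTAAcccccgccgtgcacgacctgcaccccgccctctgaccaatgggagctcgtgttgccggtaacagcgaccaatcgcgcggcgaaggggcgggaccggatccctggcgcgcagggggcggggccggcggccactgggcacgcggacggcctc
In Tef (chr15:81802423-81802672, plus strand, the upstream start site) the E-box lay 127 to 122 bases before the start:
Tef: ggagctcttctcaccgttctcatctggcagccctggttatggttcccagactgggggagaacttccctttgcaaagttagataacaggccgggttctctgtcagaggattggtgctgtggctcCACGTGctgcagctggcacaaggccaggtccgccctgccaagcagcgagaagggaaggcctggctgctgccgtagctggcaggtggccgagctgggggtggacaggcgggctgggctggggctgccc
In Ciart (chr3:95882229-95882478, minus strand) the E-box was present 3 times, 116 to 111, 58 to 53 and 44 to 39 bases before the start:
Ciart: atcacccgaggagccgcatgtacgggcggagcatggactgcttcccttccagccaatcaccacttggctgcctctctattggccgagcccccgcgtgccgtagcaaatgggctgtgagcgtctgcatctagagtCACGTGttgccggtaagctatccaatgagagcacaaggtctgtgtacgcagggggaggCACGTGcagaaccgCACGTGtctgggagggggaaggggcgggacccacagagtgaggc
A match is a description of the letters and not of a bound site. The windows of Nr1d1, Dbp, Kit and Tns2 held none of the 4 elements, which says only that these letters are not in this stretch.

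The other 3 genes past the threshold are not parts of the clock loop. Kit, which encodes the receptor for stem cell factor (probe set 10522530), read 6.59, 6.54 and 6.64 at CT0 and 7.19, 7.34 and 7.21 at CT6. The groups were narrow and far apart, and Kit rose by 0.66 ± 0.10 (SE; limma, adjusted p = 0.00461), or 1.58-fold (1.37 to 1.82). Without control CT0 replicate 2 its adjusted p was 0.0526, as was that of Nr1d2, and without control CT6 replicate 2 that of Kit was 0.0717. Nr1d2 also missed the threshold without control CT6 replicate 3, at 0.0554. Mast cells carry much Kit, and over the 9 measured mast cell markers, Kit among them, the median difference was 0.11. Of the 9, 7 were positive and 2 (Kit and Cma1) higher on every CT6 array, against 55.1% and 8.82% of all genes. Kit had been chosen for its rise, so its own place in these counts says nothing about mast cells. Of the other markers, Cma1 alone was higher on every CT6 array. The mean level of the 9 markers, Kit included, was 5.94 to 6.07 on the CT0 arrays and 6.01 to 6.24 on the CT6 arrays. Cpa3 and Ms4a2 were the 2 markers of the list with a negative difference, of -0.11 and -0.16. The part of mast cells in the rise of Kit was not tested.

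Tns2, which encodes tensin 2, an adaptor between integrins and the actin cytoskeleton (probe set 10427095), read 7.65, 7.57 and 7.78 at CT0 and 8.43, 8.29 and 8.20 at CT6. The groups did not overlap, and Tns2 rose by 0.64 ± 0.11 (SE; limma, adjusted p = 0.0309), or 1.56-fold (1.33 to 1.83). Tns2 passed in 1 of the 6 fits that left out an array of the groups compared, with adjusted p-values of up to 0.351. Lonrf3 (probe set 10599192) read 7.20, 7.31 and 7.34 at CT0 and 6.55, 6.24 and 6.28 at CT6. All CT6 arrays were below all CT0 arrays, and Lonrf3 fell by 0.93 ± 0.13 (SE; limma, adjusted p = 0.00244), so that CT0 was 1.90-fold above CT6 (1.58 to 2.29). Slc6a6, which encodes the taurine transporter, had an adjusted p of 0.0704 (limma), with a difference of 0.60 ± 0.11 (SE). With Per3 and the 7 genes past the threshold it made up the 9 genes with an adjusted p under 0.10.

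Set in the day of the control mice, the genes past the threshold took different courses after CT6. Nr1d1 had means of 8.45 ± 0.21, 9.90 ± 0.10, 8.95 ± 0.25 and 7.41 ± 0.13 at CT0, CT6, CT12 and CT18 (SD, n = 3), so CT6 was its highest time. Dbp had 6.62 ± 0.06, 7.77 ± 0.29, 7.82 ± 0.22 and 6.87 ± 0.16, and Nr1d2 had 8.02 ± 0.11, 9.13 ± 0.09, 9.19 ± 0.41 and 7.98 ± 0.21. For both, CT6 and CT12 differed by less than the spread between arrays. Kit had 6.59 ± 0.05, 7.25 ± 0.08, 6.69 ± 0.14 and 6.58 ± 0.19, so that its level at CT12 and CT18 lay near that of CT0. Tns2 had 7.67 ± 0.11, 8.31 ± 0.12, 8.22 ± 0.04 and 7.80 ± 0.21. Arntl had 7.97 ± 0.0025, 6.73 ± 0.16, 6.34 ± 0.37 and 7.32 ± 0.26, with its lowest mean at CT12. Lonrf3 had 7.28 ± 0.07, 6.36 ± 0.17, 6.60 ± 0.11 and 6.91 ± 0.15, with its lowest mean at CT6. Per3 had 6.80 ± 0.12, 7.67 ± 0.20, 8.13 ± 0.23 and 7.26 ± 0.19, and was highest at CT12. These courses are descriptions of means over a single cycle.

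**Figure D3:**
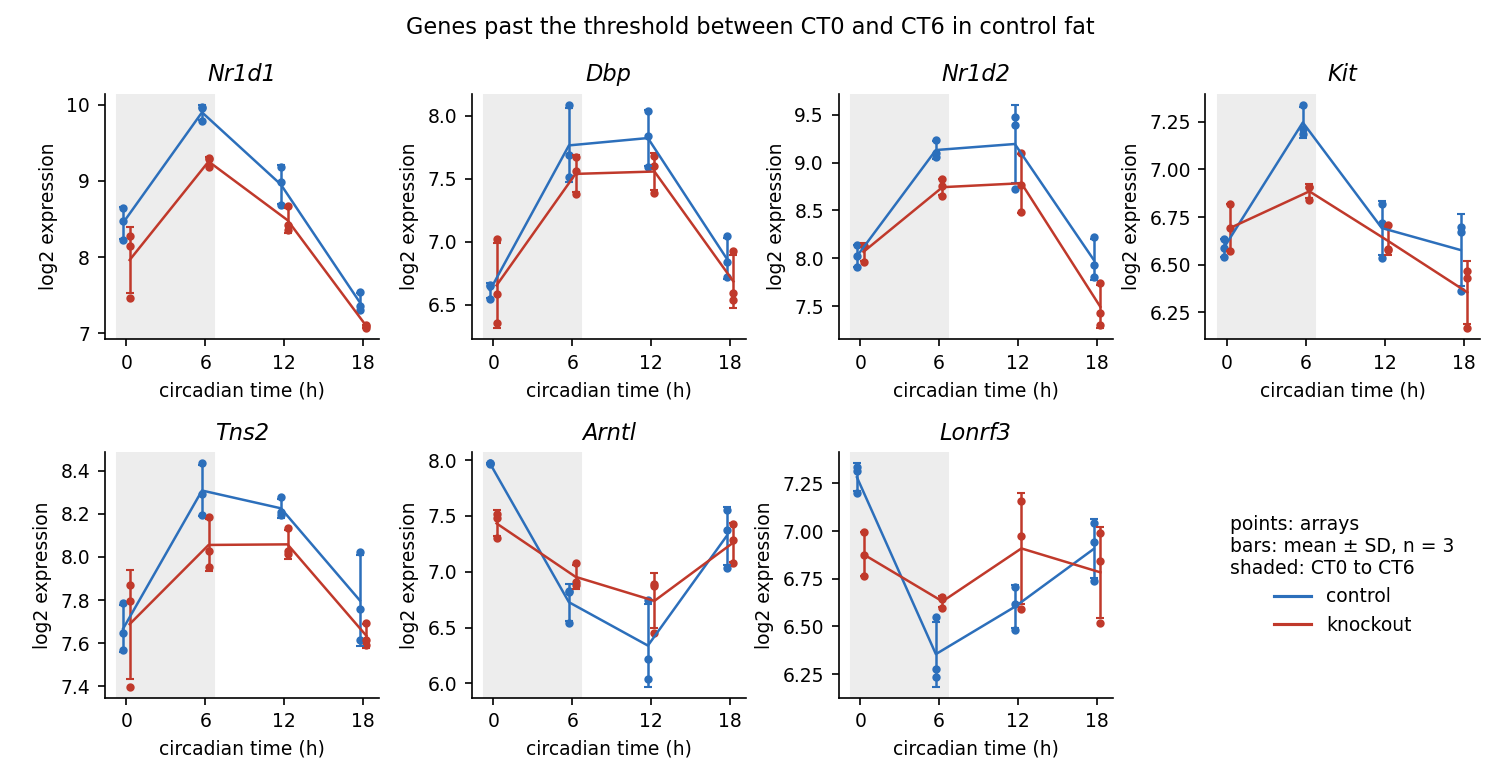
Log2 expression of the 7 genes past the threshold at CT0, CT6, CT12 and CT18 in control (blue) and knockout (red) fat; points are arrays, lines join group means, bars are the SD (n = 3) and the shaded stretch is CT0 to CT6. Nr1d1 and Kit peak at CT6 in both genotypes, and the CT12 means of Dbp and Nr1d2, over all 3 arrays, lie near their CT6 means. The control means of Arntl and Lonrf3 start above the knockout means and end below them at CT6.

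The same step was measured in knockout fat to see how far it depended on adipocyte Bmal1. There, 1 gene passed the threshold (0.00502% of genes), and it was Nr1d1. Nr1d1 read 8.14, 7.47 and 8.28 at CT0 and 9.29, 9.30 and 9.18 at CT6 in knockout fat, and rose by 1.29 ± 0.16 (SE; limma, adjusted p = 0.00112). The other 6 genes past the threshold in control fat had the same sign in knockout fat. For all 7 the knockout arrays of CT0 and CT6 did not overlap, which held for 10% of all genes. Their knockout differences were 0.88 for Dbp, 0.67 for Nr1d2, 0.19 for Kit, 0.37 for Tns2, -0.48 for Arntl and -0.25 for Lonrf3. Each was smaller than in control fat, but the 7 genes had been picked for their size in control fat. Over the 17 clock genes, the sign was the same in both genotypes for 17, the difference was smaller in knockout fat for 12, and the knockout arrays did not overlap for 9. The shares of all genes with the same sign or with a smaller difference in knockout fat were not counted.

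The difference between the steps, knockout minus control, was tested for every gene and passed the threshold for 0 of 19938 (0%) by limma, with 776 genes (3.89%) at an unadjusted p of 0.05 or less. For Nr1d1 it was -0.16, with a 95% interval of -0.62 to 0.31. For Arntl it was 0.76 (0.30 to 1.23), with an adjusted p of 0.999 (limma). The intervals also lay on one side of 0 for Lonrf3, at 0.68 (0.30 to 1.06), and for Kit, at -0.47 (-0.76 to -0.18). They held 0 for Dbp, at -0.26 (-0.74 to 0.21), for Nr1d2, at -0.43 (-0.92 to 0.06), and for Tns2, at -0.27 (-0.60 to 0.06). These intervals are not adjusted for the number of genes, and the genes past the threshold were picked on the control arrays that enter them. Without knockout CT0 replicate 2, which had the lowest Nr1d1 of its group, the value for Nr1d1 was -0.41 and the count of genes past the threshold was again 0. At CT0 the arrays with the same replicate number deviated together in both genotypes, with correlations of 0.189, 0.374 and 0.327 in their deviations from the group means. Replicate 2 stood apart in both: the smooth muscle myosin gene Myh11, a marker picked after its values were seen, read 8.54, 10.81 and 9.05 in control and 10.07, 11.01 and 9.70 in knockout fat at CT0. Other genes, also picked after their values were seen, did not all share a direction. Tecr read 10.53, 10.92 and 10.55 in control but 10.36, 10.08 and 10.28 in knockout fat at CT0. Me1 was likewise highest on replicate 2 in control and lowest on it in knockout fat, while Scd2 was highest on it in both. Opposite deviations add up in the difference between the steps, and the genes going each way were not counted. Without replicate 2 of CT0 in both genotypes, an alternative added after the data were seen, the count was 0 and the value for Nr1d1 was -0.29. The part of what these arrays share in the difference between the steps was not tested beyond this.

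Kit illustrates the size of such a difference on the arrays. In knockout fat it read 6.57, 6.82 and 6.69 at CT0 and 6.84, 6.91 and 6.91 at CT6, so that the CT6 arrays lay just above the highest CT0 array. Lonrf3 in knockout fat read 6.76, 6.99 and 6.88 at CT0 and 6.60, 6.65 and 6.64 at CT6, again without overlap. Its knockout CT0 arrays were all below its control CT0 arrays, and its knockout CT6 arrays were all above its control CT6 arrays. Among the genes with the smallest p for the difference, Ifit3, an interferon-induced gene, read 7.54, 7.50 and 8.30 at CT0 and 9.08, 9.17 and 8.31 at CT6 in knockout fat. In control fat it read 8.66, 9.02 and 8.42 at CT0 and 8.57, 8.56 and 8.93 at CT6. The difference between its steps was 1.08 (0.47 to 1.69; limma, adjusted p = 0.999), or 0.78 without replicate 2 of CT0 in both genotypes. The others with a higher step in knockout fat were Asnsd1, Zdbf2 and Dync2li1, at 0.48, 0.58 and 0.50, and none of them passed.

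Genes of fatty acid synthesis varied widely between the CT0 arrays. None of the 14 measured genes passed the threshold. Of them, 11 had a negative difference, against 44.9% of all genes, and the list's median was -0.51 against 0.01 over all genes. Elovl6, which extends palmitate, read 7.76, 10.46 and 7.37 at CT0 and 7.23, 7.90 and 7.42 at CT6. Fasn, the fatty acid synthase, read 8.62, 10.50 and 8.40 at CT0 and 7.93, 8.61 and 8.17 at CT6. Acly, which makes cytosolic acetyl-CoA, read 7.50, 9.15 and 7.50 at CT0 and 7.34, 7.42 and 7.40 at CT6. In each case CT0 replicate 2 was the high array, and the other 2 CT0 arrays lay near the CT6 arrays. Without that array the median of the list was -0.08, and the differences went from -1.02 to -0.05 for Elovl6, from -0.94 to -0.28 for Fasn and from -0.66 to -0.11 for Acly. In knockout fat the median of the list was -0.01.

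**Figure D4:**
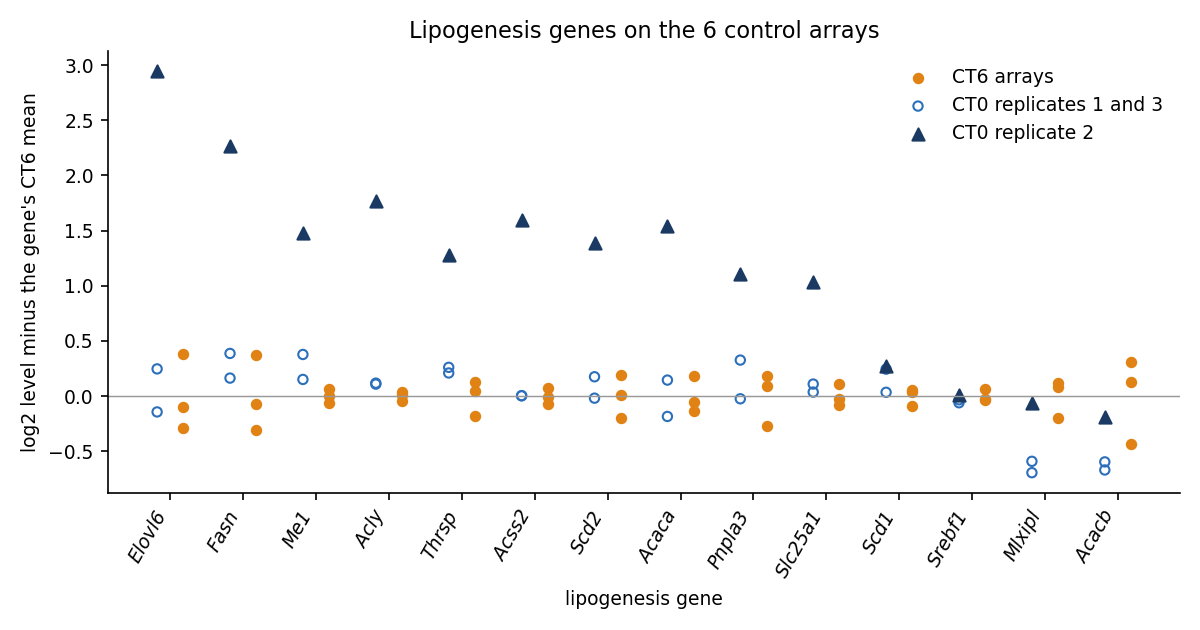
Log2 expression of the 14 measured fatty acid synthesis genes on the control arrays as the difference from the gene's CT6 mean: filled circles are CT6 arrays, open circles are CT0 replicates 1 and 3, and triangles are CT0 replicate 2. The triangle is the highest point for 11 genes, Elovl6 and Fasn most of all, while CT0 replicates 1 and 3 lie within the CT6 arrays or close to them for most genes and below them for Mlxipl and Acacb.

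In 3 genes of the list CT0 replicate 2 was not the highest of the 6 arrays. Mlxipl, which encodes the carbohydrate-responsive factor ChREBP, read 7.22, 7.85 and 7.33 at CT0 and between 7.72 and 8.03 at CT6. CT0 replicate 2 was again the highest CT0 array and overlapped the CT6 arrays, with a difference of 0.45 ± 0.14 (SE; limma, adjusted p = 0.893). Acacb, the acetyl-CoA carboxylase at mitochondria, had a difference of 0.49 ± 0.24 (SE). Without CT0 replicate 2 these differences were 0.64 for Mlxipl and 0.63 for Acacb. Srebf1, the other main transcriptional activator of the pathway, had a difference of 0.03 ± 0.07 (SE). CT0 replicate 2 was also above the other 5 arrays for 13 of 19 cholesterol synthesis genes and 23 of 29 respiratory chain genes. The same held for 8 of 20 genes of fatty acid elongation and desaturation and 8 of 13 smooth muscle markers. The share of all genes that were highest on this array was not counted, so these counts do not set the lists apart from other genes. The median of the cholesterol synthesis genes was -0.11 with the array and -0.05 without it. For the respiratory chain genes, 26 of which had a negative difference (44.9% of all genes did), it was -0.08 with and -0.02 without. None of the members of these lists passed the threshold. The part of smooth muscle content in these values was not tested.

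Genes that handle stored fat were spread around 0, and none of those measured passed. Pck1 and Gpam, which supply glycerol 3-phosphate and attach the first fatty acid to it, were higher on every CT6 array, by 0.54 ± 0.16 and 0.62 ± 0.19 (SE). Gpd1, the other source of glycerol 3-phosphate, was lower on every CT6 array, with a difference of -0.80 ± 0.28 (SE). Gpd1 read 7.86, 8.47 and 7.65 at CT0 and 6.85, 7.37 and 7.34 at CT6. The median of the 10 triglyceride synthesis genes was 0.08, or 0.14 without CT0 replicate 2. The 15 measured genes of lipolysis and the lipid droplet had a median of 0.04, with Lipe, the hormone-sensitive lipase, at 0.22 ± 0.15 (SE). The 14 fatty acid oxidation genes had a median of -0.08. Of the adipokines, Lep, which encodes leptin, read 10.64, 9.66 and 10.30 at CT0 and 9.67, 9.35 and 9.99 at CT6, with overlap, and the list of 11 had a median of -0.09.

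None of the transcription factors of the adipocyte passed the test, and most differences were positive. Pparg, which encodes the master regulator of fat cell genes, read 9.89, 9.80 and 10.08 at CT0 and 10.53, 10.52 and 10.50 at CT6. All CT6 arrays were higher, and the difference was 0.59 ± 0.14 (SE; limma, adjusted p = 0.373). Klf15, which is induced by glucocorticoids, differed by 0.37 ± 0.14 and Cebpa by 0.20 ± 0.11 (SE). Of the 18 measured adipogenic factors, 16 had a positive difference, against 55.1% of all genes, and 5 were higher on every CT6 array, against 8.82%. Their median was 0.12. Among 16 glucocorticoid-responsive genes, 10 had a positive difference and the median was 0.19. Zbtb16 read 9.14, 9.11 and 9.12 at CT0 and 9.78, 9.64 and 9.70 at CT6, a difference of 0.58 ± 0.21 (SE). Klf9 differed by 0.31 ± 0.12 (SE). In insulin signalling, Akt2, the main AKT kinase of fat, read 9.88, 9.83 and 9.88 at CT0 and 10.25, 10.38 and 10.39 at CT6, a difference of 0.48 ± 0.15 (SE; limma, adjusted p = 0.924), while the list of 18 had a median of 0.02, or 0.0022 without CT0 replicate 2.

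None of the chaperone genes passed the test, and no member was higher on every CT6 array. Hsph1, a nucleotide exchange factor of HSP70, read 7.97, 8.04 and 7.98 at CT0 and 7.46, 7.27 and 7.50 at CT6. The groups did not overlap, and the difference was -0.58 ± 0.16 (SE; limma, adjusted p = 0.733). Hspd1 and Hsp90aa1 differed by -0.21 ± 0.07 and -0.21 ± 0.08 (SE). Of 11 measured heat shock genes, 6 were lower on every CT6 array, against 5.73% of all genes, and the median was -0.16. In knockout fat Hsph1 differed by -0.63, and the median of the list was -0.06.

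None of the markers of blood vessel endothelium passed the test, and all but 1 had a positive difference. Emcn, the endothelial sialomucin, lay between 8.27 and 8.58 at CT0 and between 8.78 and 9.04 at CT6, a difference of 0.53 ± 0.14 (SE; limma, adjusted p = 0.554). Kdr, the VEGF receptor, read 7.86, 7.98 and 8.13 at CT0 and 8.32, 8.33 and 8.36 at CT6. Both genes were higher on every CT6 array. Of the 14 measured markers, 13 had a positive difference and 6 were higher on every CT6 array, against 55.1% and 8.82% of all genes. Their median was 0.28, or 0.23 without CT0 replicate 2. Their mean level was 7.90 to 8.21 on the CT0 arrays and 8.25 to 8.29 on the CT6 arrays. The defining markers Pecam1 and Cdh5 differed by 0.30 ± 0.13 and 0.31 ± 0.17 (SE), with overlap. The part of vessel content in the values of Kit, Tns2 or any other gene was not tested. Macrophage markers had a median of -0.05 over 16 genes, 12 of them negative, against 44.9% of all genes. Without CT0 replicate 2 the median was -0.16 with 16 negative, where 8807 of all 19938 genes were negative. Smooth muscle markers had a median of 0.17 over 13 genes, or 0.36 without that array.

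**Figure D5:**
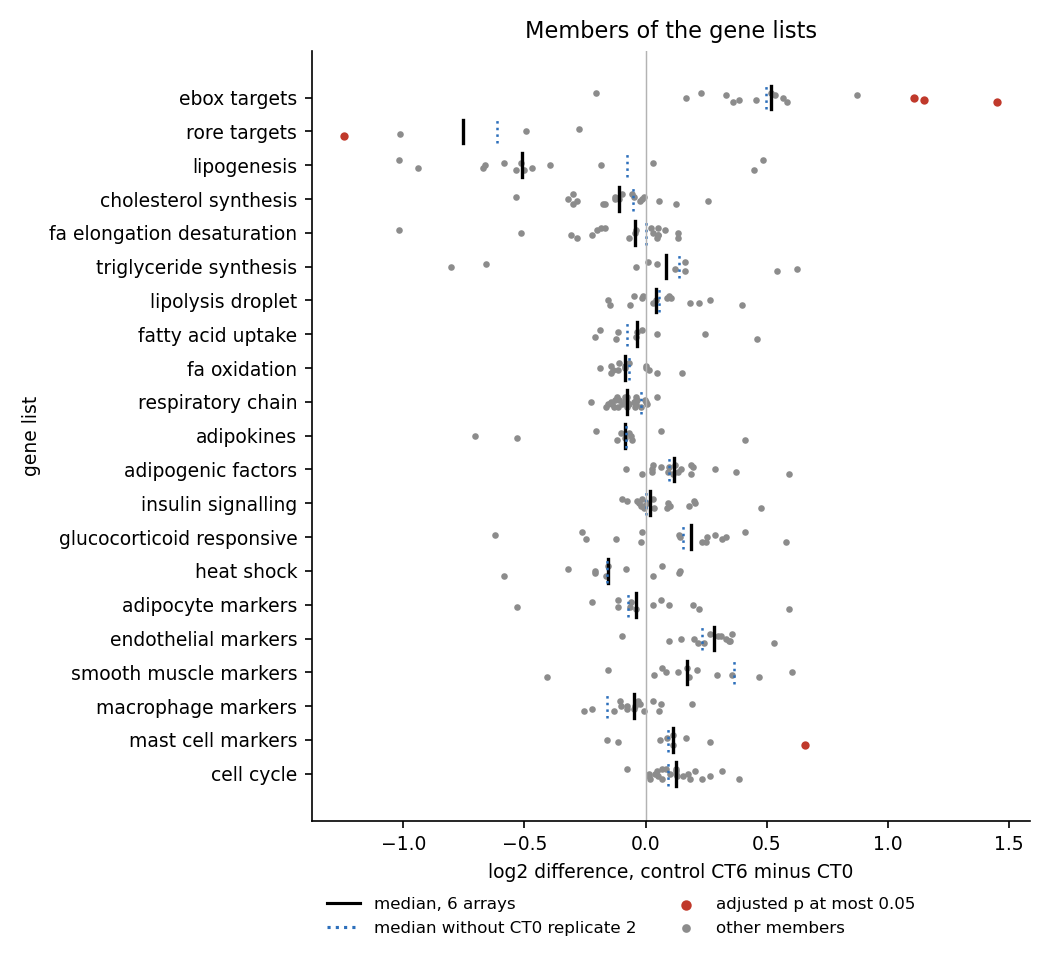
Each point is the log2 difference, control CT6 minus CT0, of a member of the gene list named on the y axis; black bars are the list medians over the 6 arrays and dotted blue bars those without CT0 replicate 2, and red points are members past the threshold. Only the lists of E-box targets, of genes under REV-ERB and ROR control and of mast cell markers hold a red point among the lists drawn, and the median of the fatty acid synthesis genes goes from -0.51 to -0.08 without that array.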

How the data were processed

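RNA from 24 inguinal fat samples was amplified from 50 ng and hybridized to 1 Affymetrix array each, per the labels' protocols. The deposited values are log2 expression made by the authors with RMA, per the submitters' processing notes; its version is not given in the sources used here. They were used as deposited. Of 35556 probe sets, 21789 had 1 symbol in the platform annotation, 1621 several and 12146 none here. The probe set with the highest mean stood for each of 999 genes with several, which left 19938 genes.

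Group means of all 8 groups were fitted with limma 3.58.1 (lmFit, eBayes) in R 4.3.3, with 16 residual and 5.03 prior degrees of freedom and Benjamini-Hochberg adjustment over all genes. Intervals are 95%. Fits were tested on simulated data. Motifs and figures used Python 3.11.15 and matplotlib 3.10.9. The replicates are labelled biological. P-values measure the spread between these samples.

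The members and the 50 gene lists were chosen with earlier results of these data known. Named are all measured clock genes, up to 15 rises and 15 falls past the threshold with arrays not overlapping, up to 3 members of a described list with the smallest p (or up to 6 past the threshold), and up to 5 genes in each direction for the difference between steps. Other members are given as examples chosen after their values were seen. Predicted genes are not named. No exact test over 3 against 3 arrays can go below p = 0.1. Alternatives changed the arrays fitted, normalization, filter, probe set choice, variance model, array weights and replicate block.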

Additional observations from a re-analysis of the deposited data

Results flagged for a closer look

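In 4 genes named for the difference between the steps, every control array was higher at CT6 than at CT0 and every knockout array was lower. Over all genes, 8.82% were higher on every control CT6 array, and 10% did not overlap in knockout fat, in either direction. The genes were picked for the difference between the steps, a choice that favours opposite signs. None passed the test of that difference (limma, adjusted p = 0.999 for each). Their control steps were 0.15 ± 0.11 for Snora3, 0.19 ± 0.07 for Sart3, 0.17 ± 0.07 for Casc3 and 0.10 ± 0.08 for Sfpq (SE). Snora3, a small nucleolar RNA, had a knockout step minus control step of -0.68. Sart3, a splicing factor that recycles spliceosomal RNA, had a difference of -0.39. Casc3, a core part of the exon junction complex, had a difference of -0.37. Sfpq, an RNA binding protein of paraspeckles, had a difference of -0.38.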

How the results depend on the processing

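The count of 7 genes (5 higher, 2 lower) was 14 (9 higher, 5 lower) with only the groups compared and 12 (8 higher, 4 lower) without 4 arrays at CT12 and CT18 that lay toward the other genotype in earlier results. It was 27 (22 higher, 5 lower) with array weights. With the replicate number as a block it was 11 (5 higher, 6 lower; 4 of the 7 genes) over the 6 arrays and 7 (5 higher, 2 lower; all 7) over all 24. Leaving out each of the 6 control CT0 and CT6 arrays in turn gave 5 to 8 genes, 2 to 6 higher and 2 to 3 lower. The other arrays, which also enter the pooled spread, were not left out singly for this count. The difference between the steps gave 0 genes in every fit run for it. Control CT0 and CT6 arrays of the same number had correlations of 0.111, 0.00442 and 0.0902 in their deviations, so the numbers were not taken as a pairing, although each array correlated best with its own number. The CT0 arrays of both genotypes did pair by number (correlations of 0.189, 0.374 and 0.327), and the CT6 arrays did not (0.0972, -0.0336 and 0.119). The difference between the steps gave 0 genes with the block over all 24 arrays and, added after the data were seen, over the 12 arrays compared.

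Nr1d1, Dbp and Arntl passed in 18 of 18 alternatives, Lonrf3 in 17, Nr1d2 in 16, Kit in 15 and Tns2 in 7. Lonrf3 missed the threshold with the block over 6 arrays (limma, adjusted p = 0.0529). Per3 passed with only the groups compared (limma, adjusted p = 0.0349), with the 12 control arrays (0.0384), without the 4 arrays (0.00503) and with array weights (0.00672). Other named genes that missed the threshold in the main fit also passed in some alternatives (limma, adjusted p). With array weights they were Pparg (0.00672), Slc6a6 (0.00329) and Tef (0.0205). Zbtb16 passed with only the groups compared (0.0254), and Hsph1 (0.0359) and Slc6a6 (0.0157) without the 4 arrays. Tef passed without control CT0 replicate 1 (0.0491) and Slc6a6 without control CT0 replicate 3 (0.0345). Sycp3 passed with the block over 6 arrays (0.0366). The causes were not tested. With 3 arrays a group, differences under those printed cannot be called absent.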

Other observations

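The gene with the largest difference of all, chosen after its value was seen, was the immunoglobulin light chain segment Igkv5-43, at 2.16 ± 0.58 (SE; limma, adjusted p = 0.727) in control fat and -0.34 in knockout fat. The 8 measured B cell markers had a median of 0.11, with 6 positive, against 55.1% of all genes. Without control CT0 replicate 2, however, the median was -0.05, with 6 of the markers negative. Their mean level ranged from 5.85 to 7.02 on the control CT0 arrays and from 6.26 to 6.64 on the CT6 arrays. Sycp3, a protein of the meiotic chromosome axis, had the lowest value of all genes, -1.30 ± 0.42 (SE; limma, adjusted p = 0.916).

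Collagen genes were lower on every CT6 array for 7 of 16 measured members and higher for 2, against 5.73% and 8.82% of all genes. Their median was -0.13 in control and -0.16 in knockout fat. Col15a1, a basement membrane collagen, differed by -0.45 ± 0.23 (SE) and Col8a1 by 0.26 ± 0.12 (SE). Of 23 measured cell cycle genes, 22 had a positive difference in control fat, against 55.1% of all genes, and 17 without control CT0 replicate 2. Their median was 0.13 there and -0.14 in knockout fat. Wee1, a kinase that delays mitosis and is counted among E-box targets, had the smallest p of that list, at 0.39 ± 0.20 (SE). Of 16 interferon-induced genes, 12 had a positive difference and 6 were higher on every CT6 array, against 55.1% and 8.82% of all genes, with Xaf1 at 0.30 ± 0.12 (SE). S100a8, a neutrophil calcium binding protein, read 6.14, 6.00 and 5.77 at CT0 and 5.33, 5.23 and 5.33 at CT6. It was the only 1 of 10 measured neutrophil markers that was lower on every CT6 array, against 5.73% of all genes. The median of these markers was -0.04, with 7 negative and 3 positive. Without control CT0 replicate 2 it was -0.0027, with 5 negative and 5 positive. None of these genes passed the threshold.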
